A study of Macaca nemestrina with 58 samples.

Results

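The vaginal mucosa of untreated pig-tailed macaques (Macaca nemestrina) was compared between late and early stages of the luteal phase, the part of the menstrual cycle after ovulation. The late luteal group, labelled Ll, holds 9 pinch biopsies from 9 animals, and the early luteal group, labelled Le, holds 4 biopsies from 4 animals. Members were chosen by the cycle phase in the sample labels, and these 13 samples are 13 of the 58 arrays of the series. All were taken at baseline, labelled with a dose of 0, before any hormonal contraceptive was given. No animal gave both phases, so the comparison lies between animals. Later in the study 6 of the late luteal and 2 of the early luteal animals received the injectable progestin depot medroxyprogesterone acetate (DMPA), and the other 3 and 2 entered the arm labelled LNG, on a combined oral contraceptive. The sources used here give no age for the animals, and no hormone level that would place a biopsy on a day of the cycle. The RNA was hybridised to arrays designed for the rhesus macaque, a related species.

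The vaginal wall is lined by a stratified squamous epithelium whose basal cells divide while the upper layers mature, flatten and are shed. Estrogen is known to thicken and mature this epithelium, and progesterone, made by the corpus luteum in the luteal phase and withdrawn at its end, is known to oppose estrogen action. Below the epithelium lie a fibroblast-rich stroma, vessels, immune cells and a layer of smooth muscle. A pinch biopsy holds a variable amount of each layer. In such bulk samples fewer cells of a type and less RNA per cell cannot be told apart.

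A single marker of the labelled tissue, KRT13, was high in all 13 samples. Other squamous markers, IVL, CDSN and DSG1, were far lower in late luteal replicates 1 and 4 than elsewhere, as given below. The KRT13 values therefore do not show an equal squamous content of the samples. KRT13, the keratin of the maturing layers of mucosal squamous epithelium, ran from a lowest 13.27 through a median of 13.96 to a highest 14.12 in late luteal samples, against 13.89, 13.98, 14.05 and 13.90 in early luteal samples, on the log2 signal scale of the arrays. The pairwise SD of log2 differences had a median of 0.672 within late luteal, 0.703 within early luteal and 0.692 between phases, so the median between phases lay between those within them. The 3' minus 5' difference of the control transcript GAPDH, which grows with RNA degradation, was 1.81 ± 0.44 in late luteal and 1.74 ± 0.13 in early luteal samples (SD, n = 9 and 4). Its difference of 0.068 gave an exact two-sided permutation p of 0.765, also after adjustment over the pair of controls. The actin difference was 1.24 ± 0.21 in late luteal and 1.30 ± 0.07 in early luteal samples, which differed by -0.061 with an exact permutation p of 0.589 (adjusted 0.765). The smallest p that 9 against 4 samples allow is 0.0014.

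Of 31624 probe sets tested in limma, 0 reached an adjusted p under 0.05 (0%), and none of the 11183 named genes passed (0%). The lowest adjusted p was 0.638. Before adjustment, 2082 probe sets (6.58%) had a p under 0.05, 1154 higher and 928 lower in late luteal samples. That count was 3508 without late luteal replicate 3, 1342 without early luteal replicate 2 and 2242 without early luteal replicate 4. Among named genes, each read from its brightest probe set, 414 were higher (3.7%) and 307 lower (2.75%) by that looser rule. Differences of mean size were unequal in direction: 193 named genes had a late luteal mean at least 2-fold above the early luteal mean (1.73%), and 32 a mean at least 2-fold below it (0.286%). Without late luteal replicate 3 these counts were 272 and 53, and without late luteal replicates 1 and 4 they were 146 and 10. The median difference of all named genes was 0.01 on the log2 scale, late minus early luteal, as for every difference given here. For 9489 of 11183 named genes (84.9%) the 95% interval of the difference lay within 2-fold in either direction, so larger differences of most genes are outside what these samples allow. That was so for only 12 of 51 squamous genes and 9 of 50 fibroblast and smooth muscle genes, whose levels varied most between biopsies.

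The genes with the smallest p are given as values, since none passed. DZIP1, which encodes a zinc finger protein of primary cilia and Hedgehog signalling, ran from 7.25 through a median of 7.96 to 8.20 in late luteal samples, against 7.37, 5.39, 6.30 and 5.47 in early luteal samples. In 8 of 9 late luteal samples it exceeded every early luteal one. Its mean was 1.70 ± 0.30 (SE) higher on the log2 scale, or 3.26-fold, with an adjusted p of 0.638 in limma, and its other probe set had a difference of 1.59. KCNJ8, the pore subunit of an ATP-sensitive potassium channel of vascular muscle and pericytes, ran from 5.17 through 6.82 to 7.47 in late luteal samples, against 5.46, 4.53, 4.23 and 4.41 in early luteal samples. Its difference was 1.91 ± 0.38 (adjusted p 0.638 in limma), and 8 of 9 late luteal samples lay above the early luteal range. BCAS1, named for its amplification in breast carcinoma, had a wider difference of 2.43 ± 0.50, with 5.81 to 7.73 in late luteal samples against 6.05, 3.78, 3.32 and 3.47 in early luteal samples. All early luteal values of KCNJ8, and those of BCAS1 in replicates 2 to 4, lay below 5.51. Probe sets with a mean below that level were left out, so both genes were kept through their late luteal values. Early luteal replicate 1 stood within the late luteal range for BCAS1, and the groups overlap there. Without that sample DZIP1 and BCAS1 passed in limma, with differences of 2.12 (adjusted p 0.016) and 3.06 (adjusted p 0.032). Of the early luteal samples it lay nearest the late luteal values of both genes. Leaving it out had to widen both differences, so these passes are no separate evidence.

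A small set of genes did not overlap at all between the groups. All 9 late luteal samples lay above all 4 early luteal samples for 14 of 11183 named genes (0.125%), and below them for 18 (0.161%). By chance, full separation in a given direction has the smallest permutation p that such groups allow, given above. Both shares lie near that p, so the number of these genes is about what chance gives. MMP11, a metalloproteinase made by stromal fibroblasts, had 6.51 to 8.78 with a median of 7.34 in late luteal samples, against 6.25, 6.10, 6.07 and 6.09 in early luteal samples. Its mean was 1.20 ± 0.32 higher, but its other probe set had a difference of -0.07. SPRY4, an inhibitor of receptor tyrosine kinase signalling, had 5.65 to 6.36 in late luteal samples, against 5.57, 5.26, 5.58 and 5.37 in early luteal samples, a difference of 0.63 ± 0.13. Its early luteal values lay near the mean level of 5.51 below which probe sets were left out. RRAGB, a GTPase of amino acid sensing, and BAG2, a co-chaperone, had differences of 0.53 ± 0.12 and 0.53 ± 0.14, again with every late luteal sample above every early luteal one. The zinc finger gene ZNF333 completed the genes named on that side, at 0.46 ± 0.12.

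On the lower side, CLDN1, the claudin that seals tight junctions of stratified epithelium, had 9.78 to 10.26 with a median of 10.07 in late luteal samples, against 11.38, 10.33, 10.62 and 10.92 in early luteal samples. Each late luteal sample lay below each early luteal one. Its difference was -0.75 ± 0.17 (95% interval -1.12 to -0.39, adjusted p 0.746 in limma), and its other probe set had a difference of -0.84. SUSD4, a sushi domain gene linked to complement control, had 6.40 to 7.09 in late luteal samples, against 7.23, 8.15, 8.14 and 8.03 in early luteal samples. Its difference was -1.01 ± 0.18 (adjusted p 0.638 in limma), and -0.51 in its other probe set. IL13, a type 2 cytokine, had 5.30 to 5.65 in late luteal samples, against 5.71, 5.99, 6.06 and 6.28 in early luteal samples, near the mean level of 5.51 below which probe sets were left out. CHEK2, a kinase of the DNA damage checkpoint, had 7.58 to 8.12 in late luteal samples, against 8.32, 8.66, 8.25 and 8.27 in early luteal samples. OXER1, a receptor of oxidised arachidonic acid, and DDX60L, a helicase-like gene, also did not overlap, with differences of -0.42 ± 0.11 each. DDX60L, at 5.58 to 6.02 in late luteal samples, lay near the level of 5.51 as well. Since these genes were picked out by their small p, their separation is given as a description only. Without early luteal replicate 1, SUSD4 had a difference of -1.23 and passed in limma (adjusted p 0.0289). That sample lay nearest the late luteal values of SUSD4, so leaving it out had to widen the difference.

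**Figure D1:**
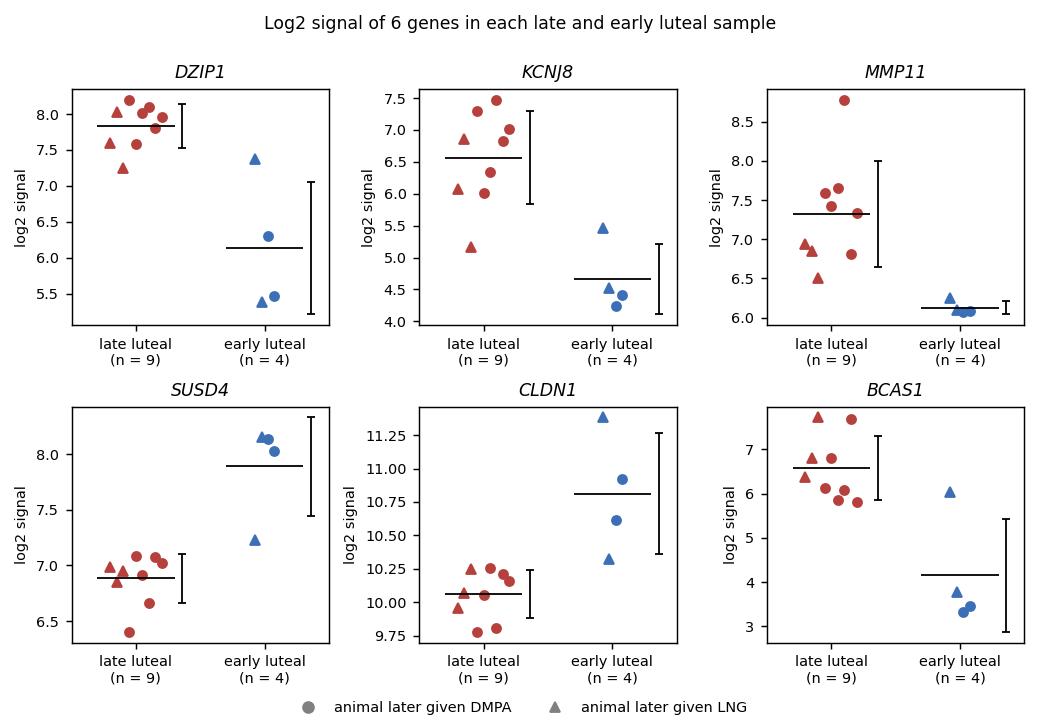
Log2 signal (vertical axes) of 6 genes in each of 9 late luteal samples (left, red) and 4 early luteal samples (right, blue). Circles are animals later given DMPA and triangles those later given LNG, the lines are group means and the bars beside them SD. MMP11, SUSD4 and CLDN1 do not overlap between the groups, while DZIP1, KCNJ8 and BCAS1 do through early luteal replicate 1, and no gene passed in limma.

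Fibroblast and matrix genes had the highest list median, 1.08, of the 31 gene lists, against 0.01 for all named genes. None of its 34 measured genes passed. At an unadjusted p under 0.05, 11 were higher (32.4%, against 3.7% of all named genes) and 0 lower. A higher mean in late luteal samples was found for 32 of 34. The late luteal mean was at least 2-fold higher for 21 (61.8%, against 1.73% of all named genes). BGN, the matrix proteoglycan biglycan, had 10.80 to 12.55 with a median of 11.87 in late luteal samples, against 11.12, 11.12, 10.65 and 9.98 in early luteal samples. It exceeded the early luteal range in 8 of 9 late luteal samples, with a difference of 1.00 ± 0.29. COL12A1, a fibril-associated collagen, differed by 1.60 ± 0.49 and PRRX1, a transcription factor of connective tissue fibroblasts, by 1.51 ± 0.48. COL1A1, the main chain of collagen I, had 9.33 to 13.63 with a median of 13.08 in late luteal samples, against 12.53, 12.43, 10.62 and 8.64 in early luteal samples. The wide spread of COL1A1 in both groups gave a difference of 1.55 with an SE of 0.79.

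The stromal signal was not a property of every sample of a phase. The mean of the 34 fibroblast and matrix genes was 7.87 in late luteal replicate 3 and between 9.50 and 10.86 in the other 8 late luteal samples, against 9.82, 9.69, 8.37 and 7.78 in early luteal replicates 1 to 4. The low late luteal sample lay beside the lower pair of early luteal samples, and the higher early luteal pair lay within the late luteal range. Without late luteal replicate 3 the list median was 1.43 with 24 genes higher at an unadjusted p under 0.05, and no probe set passed. In that setting 700 of all 11183 named genes were higher by that rule, against 414 with all samples. Without early luteal replicate 4 the median was 0.71 with 5 such genes, against 414 of all named genes in that setting. Among matrix proteases and their inhibitors the median was 0.43, 2 of 19 genes were higher at an unadjusted p under 0.05 (10.5%, against 3.7% of all named genes) and 0 lower. The median was 0.23 without early luteal replicate 4 and 0.82 without early luteal replicate 2. Both genes are proteases of the matrix: MMP11, and ADAMTS1, known as a progesterone target in the mouse ovary, which differed by 1.05 ± 0.39.

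Smooth muscle genes had a list median of 1.06. Of 16 measured, 0 passed, 6 were higher and 0 lower at an unadjusted p under 0.05, and 8 had a late luteal mean at least 2-fold higher. These are 37.5% and 50% of the list, against 3.7% and 1.73% of all named genes. The values fell apart within the late luteal group. MYH11, the myosin heavy chain of smooth muscle, was at 11.01, 11.62, 11.24 and 11.33 in late luteal replicates 1, 2, 4 and 8 and between 5.76 and 8.53 in the other 5, against 7.16, 6.51, 5.83 and 5.70 in early luteal samples. The 4 high samples thus lay far above all others, and the other 5 ran upward from within the early luteal range. The difference of means was 2.69 ± 1.08. LMOD1, an actin nucleator of smooth muscle, differed by 1.85 ± 0.54 (0.97 in its other probe set). MYL9, a myosin light chain, differed by 1.29 ± 0.47. No early luteal biopsy had a mean of the 16 genes above 7.52, whereas the late luteal means ran from 7.16 to 9.58. Without late luteal replicates 1 and 4, with the high replicates 2 and 8 kept, the list median was 0.80. In that setting 2 genes were higher at an unadjusted p under 0.05, against 413 of all 11183 named genes. Without early luteal replicate 4 the list median was 0.98 with 1 such gene, against 414 of all named genes. The list without all 4 high samples is not given here.

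Vessel genes had a smaller median of 0.48, with 1 of 24 higher and 0 lower at an unadjusted p under 0.05 (4.17%, near the 3.7% of all named genes). Without early luteal replicate 4 the median was 0.18, with no such gene. MCAM, an adhesion molecule of endothelium and pericytes, had 6.52 to 8.95 in late luteal samples. Its early luteal values were 7.56, 7.24, 6.36 and 5.39, a difference of 1.30 ± 0.46 (0.45 and 1.03 in its other probe sets). PECAM1, the classical endothelial marker, had a difference of only 0.08 ± 0.34 (0.38 and 0.31 in its other probe sets). Nerve and melanocyte genes had a median of -0.11, and L1CAM, an adhesion molecule of nerve, had a difference of 1.12 ± 0.33 in one probe set and 0.01 in the other.

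**Figure D2:**
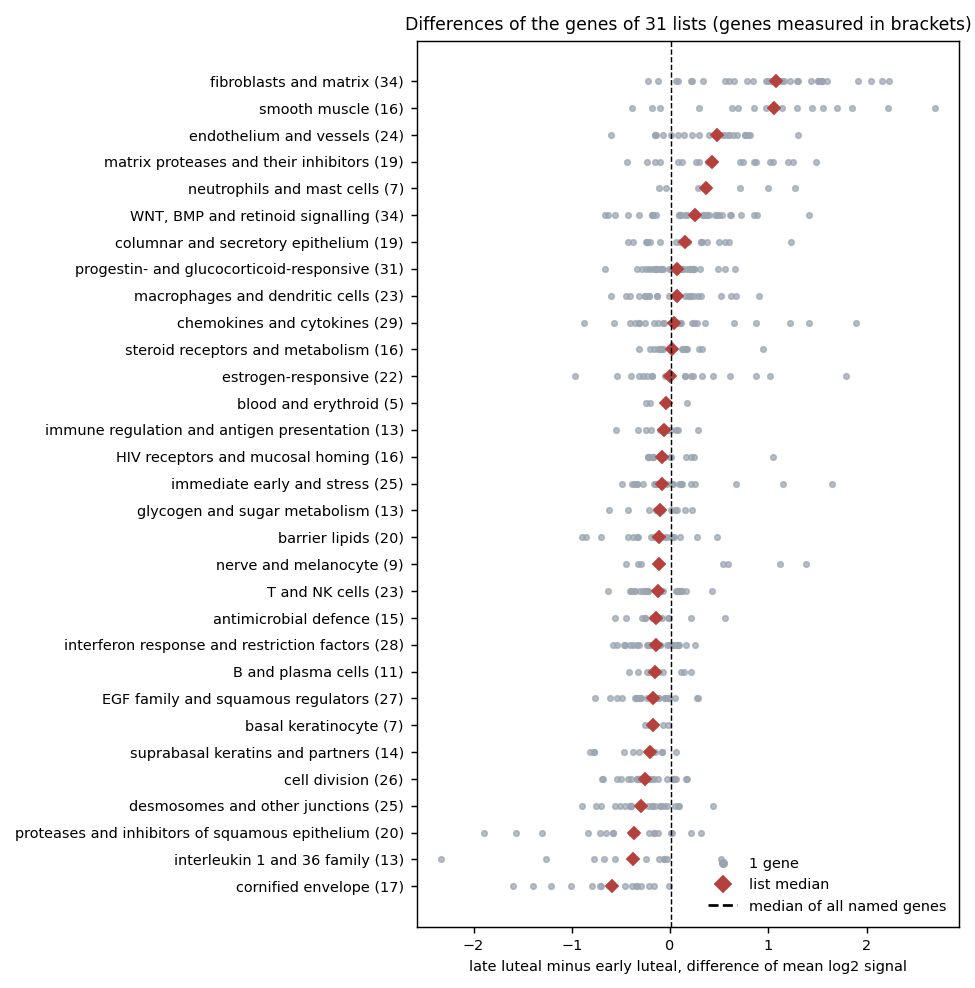
Late minus early luteal difference of mean log2 signal (horizontal axis) for each measured gene (grey points) of 31 gene lists, ordered by the list median (red diamonds), with the number of genes measured in brackets. Fibroblast and smooth muscle medians lie at 1.08 and 1.06, the cornified envelope median at -0.59 and the median of all named genes (dashed line) at 0.01.

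Genes of the mature squamous epithelium had lower means in late luteal samples, with a pair of late luteal biopsies far below the others. The cornified envelope is the cross-linked protein layer under the membrane of mature squamous cells, and its 17 measured genes all had a lower late luteal mean, with a median of -0.59. None of the 17 reached an unadjusted p under 0.05 and 4 were at least 2-fold lower (against 0.286% of all named genes). IVL, encoding the envelope protein involucrin, was at 7.78 and 6.26 in late luteal replicates 1 and 4 and between 10.89 and 12.66 in the other 7, against 10.41, 12.44, 12.68 and 12.53 in early luteal samples. Its difference was -1.01 ± 1.13. CDSN, the corneodesmosome protein, was at 6.33 and 6.99 in that late luteal pair, with a late luteal median of 11.30, against 10.73 to 13.21 in early luteal samples. CRNN, the late differentiation protein cornulin, and DSG1, a desmosomal cadherin of upper layers, had differences of -0.59 ± 0.62 and -0.90 ± 1.00 with the same pair lowest.

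Without late luteal replicates 1 and 4 the cornified envelope median was 0.14, with 14 genes of higher mean and 3 of lower, and without replicate 4 alone it was -0.20. That pair was chosen after its low squamous values were seen, so leaving it out had to raise the late luteal means. With all 28 baseline samples and the animal as a fixed block, the cornified envelope median was -1.08. The medians of the squamous proteases and inhibitors (20 genes) and of the suprabasal keratins and partners (14 genes) were -0.36 and -0.20 with all samples, and 0.14 and 0.06 without that pair. The pair also had low means of the 51 squamous genes, 9.29 and 8.71, against 11.30 to 12.18 in the other late luteal and 11.09 to 12.10 in the early luteal samples. Their GAPDH 3' minus 5' differences were 2.10 and 2.67, and late luteal replicate 7, at 2.14, had a squamous mean of 11.89. Their part in the result was not tested. The fibroblast median without the pair was 0.93, with 32 of 34 genes still of higher mean.

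**Figure D3:**
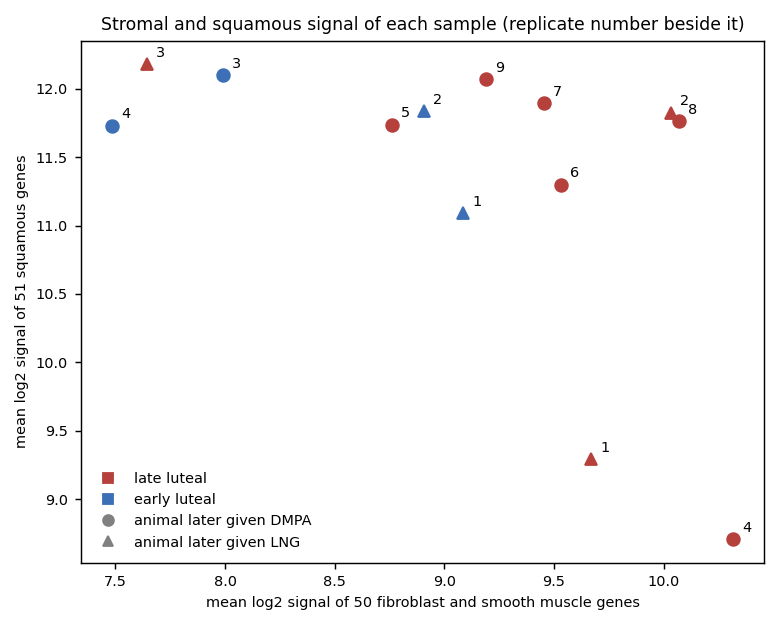
Mean log2 signal of 50 fibroblast and smooth muscle genes (horizontal axis) and of 51 squamous genes (vertical axis) in each late luteal (red) and early luteal (blue) sample, with the replicate number beside each point, circles for animals later given DMPA and triangles for those later given LNG. Late luteal replicates 1 and 4 have squamous means of 9.29 and 8.71, below all other samples, and late luteal replicate 3 has a stromal mean of 7.64, beside early luteal replicates 3 and 4.

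Basal keratinocyte genes were lower in mean by small amounts in 7 of 7, with a median of -0.18. TP63, the master regulator of stratified epithelium, differed by -0.15 ± 0.10, and its other 5 probe sets by -0.42 to -0.10, 3 of them at an unadjusted p under 0.05. Genes of desmosomes and other junctions had a median of -0.29, with 21 of 25 lower in mean, and 1, CLDN1, at an unadjusted p under 0.05. DSG3, a desmosomal cadherin of lower layers, had a difference of -0.40 ± 0.27. Barrier lipid genes (20 measured) and glycogen and sugar genes (13 measured) had medians of -0.11 and -0.10 and no gene at an unadjusted p under 0.05. SLC2A1, a glucose transporter, had a difference of -0.62 ± 0.36.

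Columnar and secretory epithelium, which lines the cervix next to the vagina, had a list median of 0.16 with 12 of 19 genes higher in mean, and one of -0.03 without early luteal replicate 2. KRT18, a keratin of simple epithelia, had 5.63 to 7.74 with a median of 6.84 in late luteal samples, against 5.43, 5.28, 6.06 and 5.06 in early luteal samples. It exceeded the early luteal range in 7 of 9 late luteal samples, with a difference of 1.23 ± 0.35 (adjusted p 0.746 in limma) and of 0.58 in its other probe set. KRT18 was the only gene of the list at an unadjusted p under 0.05.

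The list of neutrophil and mast cell genes had a median of 0.37, with 5 of 7 measured genes higher in mean and 2 lower. CPA3, the mast cell carboxypeptidase, had 5.84 to 8.90 with a median of 8.02 in late luteal samples, against 7.24, 6.84, 5.75 and 6.18 in early luteal samples. It lay above the early luteal range in 6 of 9 late luteal samples, with a difference of 1.27 ± 0.49. KIT, the receptor that mast cells need to survive, had a difference of 0.99 ± 0.40 with 6 of 9 samples above the range, and MS4A2, a chain of the IgE receptor, one of 0.71 ± 0.38. CPA3 and KIT reached an unadjusted p under 0.05, 28.6% of the list, against 3.7% of all named genes higher by that rule. Without early luteal replicate 4 no gene of the list did, while 414 of all 11183 named genes were higher.

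T and NK cell genes had a median of -0.12 over 23 genes, and 0.16 without early luteal replicate 4. That sample had a T and NK cell mean of 9.53, against 7.72 to 8.70 in the late luteal and 7.88 to 8.11 in the other early luteal samples. FOXP3, the factor of regulatory T cells, had 5.78 to 6.21 in late luteal samples, against 6.28, 6.47, 6.12 and 6.79 in early luteal samples, a difference of -0.40 ± 0.13. B and plasma cell genes had a median of -0.15 over 11 genes. Macrophage and dendritic cell genes had a median of 0.07, which was 0.40 without early luteal replicate 4 and -0.09 without early luteal replicate 3, with CD1C, an antigen-presenting molecule of dendritic cells, at -0.41 ± 0.16 and VSIG4, a complement receptor of tissue macrophages, at 0.90 ± 0.42. Blood and erythroid genes had a median of -0.04 over 5 genes.

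Epithelial cytokines of the interleukin 1 and 36 family had a median of -0.37, with 12 of 13 genes lower in mean and 0 at an unadjusted p under 0.05, and of -0.07 without late luteal replicate 4. IL36G, an alarm cytokine of squamous cells, had 3.89 to 10.37 with a median of 7.23 in late luteal samples, against 5.91, 9.71, 11.07 and 10.39 in early luteal samples. Late luteal replicates 1 and 4, the pair of low squamous signal, were lowest at 3.89 and 3.90, and early luteal replicate 1 lay within the late luteal range. The difference was -2.33 ± 1.17. IL33, an alarm cytokine of basal cells and stroma, had a difference of -0.67 ± 0.36. Its difference was -1.12 between follicular samples of the same animals, and 0.45 when all 28 baseline samples were fitted with the animal as a fixed block. Chemokines and cytokines had a median of 0.04, with 2 of 29 genes higher (against 3.7% of all named genes) and 1 lower (against 2.75%) at an unadjusted p under 0.05. Without early luteal replicate 4 the median was 0.29, and without early luteal replicate 1 it was -0.03. CXCL12, a stromal chemokine and the ligand of CXCR4, differed by 0.88 ± 0.35 (0.43 and 0.34 in its other probe sets), CCL19, which guides cells through CCR7, by 1.22 ± 0.54, and the growth factor gene CSF2 by -0.41 ± 0.15.

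Antimicrobial defence genes had a median of -0.14 with 13 of 15 lower in mean and none at an unadjusted p under 0.05. LYZ, lysozyme, had a difference of -0.45 ± 0.29. Interferon response and restriction genes had a median of -0.15 over 28 genes, with IFI44 at -0.47 ± 0.31 and OAS1 at -0.54 ± 0.37. The other OAS1 probe sets had differences of -0.35, 0.05 and -0.01. HIV receptors and mucosal homing genes had a median of -0.08 over 16 genes, and of 0.16 with 11 of 16 higher in mean without early luteal replicate 4. CD4, the primary HIV receptor, had 5.44 to 6.69 with a median of 6.36 in late luteal samples, against 6.85, 6.35, 5.45 and 6.24 in early luteal samples. Its difference of -0.06 had a 95% interval of -0.64 to 0.51. The co-receptor CXCR4 differed by 0.24 ± 0.41, with an interval of -0.63 to 1.12, and VCAM1, an adhesion molecule for leukocyte entry, by 1.05 ± 0.68.

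Steroid receptors and their targets showed small differences. PGR, the progesterone receptor, had 7.54 to 10.49 with a median of 9.36 in late luteal samples, against 9.81, 9.66, 9.93 and 9.05 in early luteal samples, and the groups overlapped. Its difference was -0.32 ± 0.40 (95% interval -1.18 to 0.54). ESR1, the estrogen receptor alpha, differed by -0.16 with an interval of -0.64 to 0.31. FKBP5, a co-chaperone induced by progestins and glucocorticoids, had 7.86 to 8.92 in late luteal samples, against 8.22, 8.32, 8.50 and 8.65 in early luteal samples. Its difference was -0.01 with an interval of -0.40 to 0.39, which leaves out a 2-fold difference either way. The list medians were 0.02 for steroid receptors and metabolism (16 genes), 0.07 for progestin- and glucocorticoid-responsive genes (31 genes) and -0.00 for estrogen-responsive genes (22 genes).

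Single members of the hormone lists lay further out. BMP2, a growth factor of the progesterone response in mouse uterine stroma, had a difference of -0.66 ± 0.26 (-0.25 in its other probe set), and HAND2, a stromal transcription factor downstream of the progesterone receptor in the mouse uterus, one of 0.49 ± 0.22. IGF1, a growth factor of stromal cells, had 6.46 to 11.89 with a median of 10.76 in late luteal samples. Its early luteal values were 10.60, 9.22, 7.89 and 7.07, a difference of 1.79 ± 0.86. Its other probe sets had differences of 2.04, 1.79 and 0.29.

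Cell division genes had a median of -0.26, with 20 of 26 lower in mean and none at an unadjusted p under 0.05. MKI67, the proliferation marker, had 5.46 to 8.29 with a median of 7.57 in late luteal samples, against 6.86, 7.61, 7.90 and 8.70 in early luteal samples. Its difference was -0.54 ± 0.47, and the list median was 0.11 without early luteal replicate 4. EGF family and squamous regulator genes had a median of -0.17 with 24 of 27 lower in mean, among them PRDM1, a regulator of terminal keratinocyte differentiation, at -0.54 ± 0.24. Genes of WNT, BMP and retinoid signalling had a median of 0.25 over 34 genes. LRP6, a WNT co-receptor, had a difference of 0.61 ± 0.20 and RARRES2, the retinoid-responsive gene of the chemoattractant chemerin, one of 1.41 ± 0.53. Immediate early and stress genes had a median of -0.08, with FOSL2, a subunit of AP-1, at -0.34 ± 0.14 and ZFP36, an mRNA decay factor, at 1.65 ± 0.79. Genes of immune regulation and antigen presentation had a median of -0.06 over 13 genes, and of 0.25 with 12 of 13 higher in mean without early luteal replicate 4.

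Levels in the follicular phases, before ovulation, set these differences in the cycle. MYH11 had a median of 6.56 in 10 early follicular and 5.96 in 5 late follicular samples, against 8.53 in 9 late luteal samples, and its highest follicular value was 7.87, below the 4 high late luteal biopsies. KRT18 had medians of 5.65 in early follicular, 5.79 in late follicular and 6.84 in late luteal samples. CPA3 had medians of 6.63 and 4.87 in early and late follicular samples, and the 5 late follicular values, up to 5.37, lay below all 13 luteal values. VSIG4 had medians of 4.86 and 4.81 in early and late follicular samples, against 6.36 in late luteal samples. IL36G had medians of 9.76 and 10.73 in early and late follicular samples, against 7.23 in late luteal samples, with early follicular values down to 4.65. BGN, by contrast, had an early follicular median of 11.61 with values up to 12.33, within the late luteal range. CLDN1 had 9.81 to 10.93 in early follicular samples, which overlaps both luteal groups and leaves out early luteal replicate 1 at 11.38. These levels are given without a test, since most of the animals recur among the phases.

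**Figure D4:**
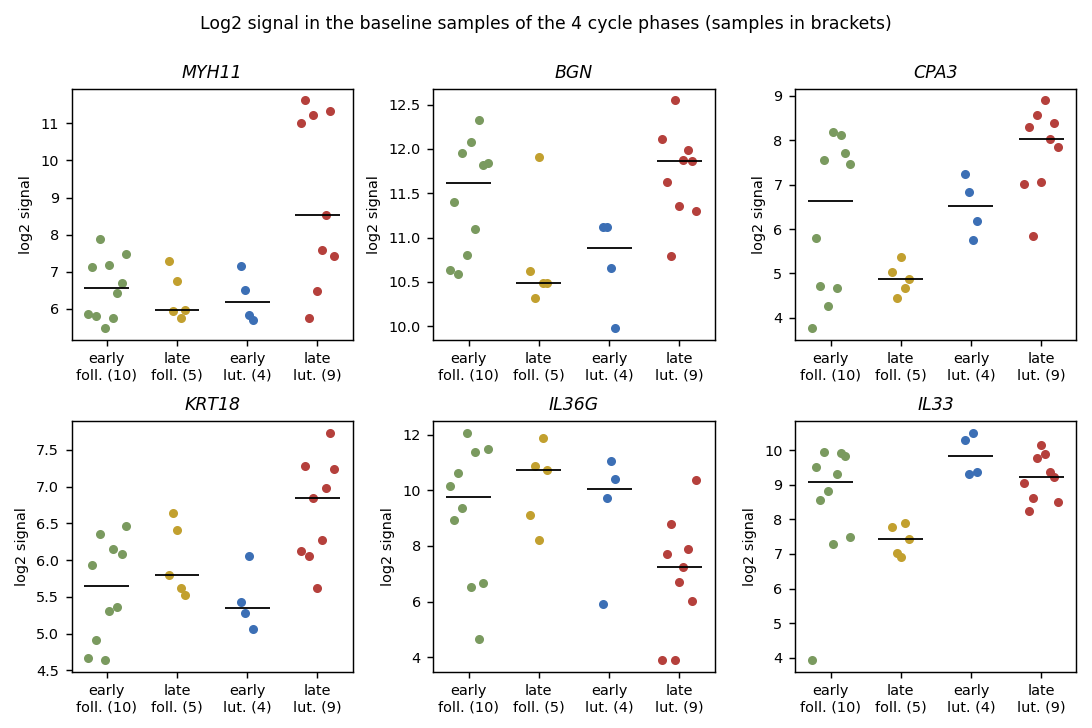
Log2 signal (vertical axes) of 6 genes in the baseline samples of each cycle phase in cycle order, with the number of samples in brackets, a point for each sample and a line at the median. The late follicular CPA3 values, up to 5.37, lie below all luteal samples, and 4 late luteal samples hold MYH11 values of 11.01 or more that no other phase reaches.

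The comparison was also made within each of the arms that the animals later entered, before any drug was given. Among the 6 late luteal and 2 early luteal animals of the DMPA arm, 133 probe sets were higher (0.421%) and 2 lower (0.00632%) at an adjusted p under 0.05 in limma. They hold 49 named genes higher (0.438%) and 1 lower (0.00894%). Of the 34 fibroblast and matrix genes 8 were called higher in that arm, and the list median was 2.49. Among the 3 late luteal and 2 early luteal animals of the LNG arm, 1 probe set was called (0.00316%). It belongs to MAMU-A, a histocompatibility gene named after its values were seen, with a difference of 8.22. It stood at 3.92 and 3.13 in the early luteal samples of that arm, and below 4 in all other samples of the same animals. The fibroblast median in the LNG arm was -0.31. COL1A1 had a difference of 3.34 ± 0.53 in the DMPA arm (adjusted p 0.0465 in limma) and of -0.61 ± 1.22 in the LNG arm. IGF1 had 3.48 ± 0.44 in the DMPA arm (adjusted p 0.0346 in limma) and -0.37 ± 1.53 in the LNG arm.

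Both early luteal animals of the DMPA arm had low stromal signal, with fibroblast means of 8.37 and 7.78, and the 6 late luteal animals of that arm lay between 9.50 and 10.86. In the LNG arm the late luteal means were 10.04, 10.35 and 7.87, against 9.82 and 9.69 in early luteal samples. A test of whether the phase difference depended on the arm called 0 of 31624 probe sets in limma (lowest adjusted p 0.958), with 1454 at an unadjusted p under 0.05. With 2 early luteal animals in each arm, the arm and the single biopsy cannot be told apart. DZIP1, BCAS1, CLDN1, KRT18 and SUSD4 had the same direction in both arms, as had the other genes of smallest p. They were named for a small p over both arms together. A shared direction was thus likely beforehand and is no separate check. DZIP1 had differences of 2.06 ± 0.24 in the DMPA arm (adjusted p 0.0266 in limma) and 1.25 ± 0.61 in the LNG arm, and BCAS1 had 3.0 ± 0.46 (adjusted p 0.0418 in limma) and 2.06 ± 0.75. CLDN1 had -0.73 ± 0.19 and -0.76 ± 0.36, KRT18 had 1.22 ± 0.52 and 1.13 ± 0.43, and SUSD4 had -1.23 ± 0.21 and -0.76 ± 0.32, without passing in either arm. The smooth muscle median was 1.17 in the DMPA arm and 0.84 in the LNG arm. Of the 49 genes called higher in the DMPA arm, 13 had a higher late luteal mean in the LNG arm. The share of all named genes with a higher mean in that arm is not given here, so the count has no reference. The 49 include 8 fibroblast and matrix genes, which may vary together between biopsies, so they are not 49 separate outcomes.

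**Figure D5:**
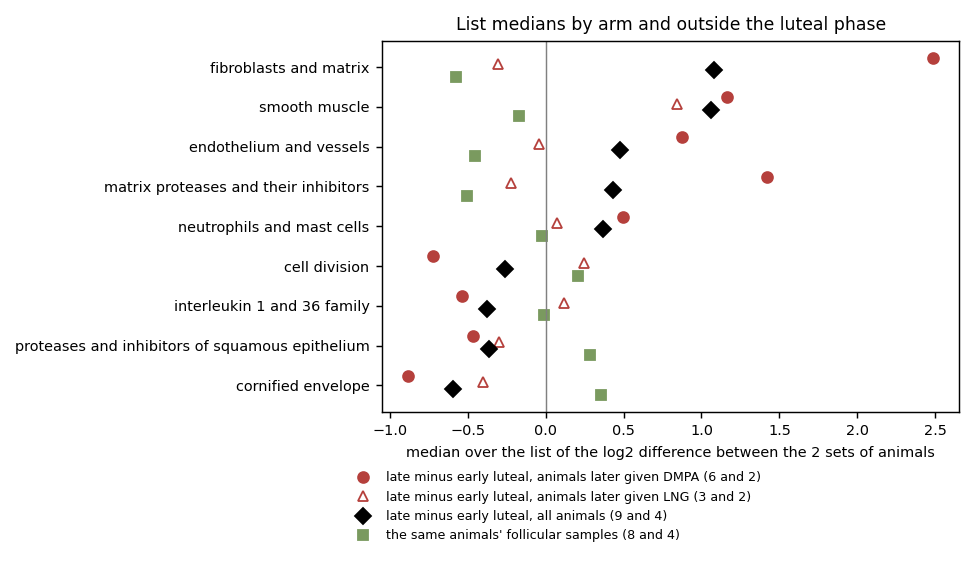
Median over each of 9 gene lists of the log2 difference (horizontal axis) in the DMPA arm (filled circles), the LNG arm (open triangles), all 13 animals (black diamonds) and the follicular samples of the same 2 sets of animals (green squares). The fibroblast median is 2.49 in the DMPA arm, -0.31 in the LNG arm and -0.58 in the follicular samples, and the smooth muscle median is 1.17, 0.84 and -0.17.

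Since no animal gave both luteal phases, a difference between phases and one between animals cannot be told apart in these samples. Follicular baseline biopsies existed for 8 of the 9 late luteal and all 4 early luteal animals, and the same contrast was taken between them, without a test. The fibroblast median was -0.58 in those follicular samples, against 1.08 in the luteal ones, and smooth muscle had -0.17 against 1.06. The cornified envelope median was 0.35 in the follicular samples, against -0.59. Of the 24 genes with the smallest p, 13 had the same sign in the follicular samples and 5 had at least 50% of the luteal size. That is close to an even split of signs, and the share over all named genes is not given here. CLDN1 had a difference of -0.09 in the follicular samples and SUSD4 one of 0.14. KCNJ8 and BCAS1 had differences of -0.54 and -0.66 there, opposite in sign to the luteal ones, and KRT18 had 0.14. DZIP1 had 0.43 (SD 0.40 in the late luteal and 0.30 in the early luteal animals) and RRAGB 0.37 (SD 0.37 and 0.41). The late luteal animals thus had a higher follicular mean of both genes, by about the spread between animals.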

How the data were processed

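Total RNA of vaginal pinch biopsies was amplified as cDNA, biotin-labelled with a NuGEN kit and hybridised to Affymetrix Rhesus Macaque Genome Arrays, per the labels' protocols. The authors deposited log2 values per probe set, between 1.37 and 14.57, with array medians of 6.07 to 6.25. affy and Partek are named in the submitters' processing notes, without versions. The background correction and normalization are not given in the sources used here, and the values were taken unchanged. The arrays hold 52865 probe sets. Controls (158) and probe sets whose 13-sample mean lay below its 40th percentile (log2 5.51) were left out, which kept 31624. The late luteal samples weighed more in that mean. Genes low in early luteal samples, such as KCNJ8, BCAS1, ZNF423, L1CAM, KRT18, VSIG4 and MS4A2, could thus be kept through their late luteal values. Platform annotation gave 24956 probe sets 1 symbol, 361 several and 27390 none, and each of 11183 genes was read from its brightest probe set. Sequences and genome positions were not used here.

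The 9 late luteal and 4 early luteal samples were fitted with limma 3.58.1 in R 4.3.3 (statmod 1.5.0), moderated and two-sided, with Benjamini-Hochberg adjustment over all probe sets kept and an adjusted p of 0.05 as threshold. Errors of differences are standard errors of the fit. The limma fit and its code were tested on simulated data. RNA quality was compared by exact permutation over 715 splits.

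Of 885 genes on 31 lists, 577 were measured, 5 to 34 per list. The members and lists were chosen with earlier results of these data known. Genes were named by rule, 123 in all: the 12 of smallest p in each direction, the 3 of smallest p in each list, and 15 fixed genes, of which KRT5, ACTA2 and CD3E are not analysed here. Genes with only a locus number were not named. The samples are of separate animals, and their number limits the precision. Alternatives covered the samples fitted, the animal or the arm as a term, RNA quality and stromal covariates, the filter, scaling, weighting, and each sample left out. The number on the label was also tried as a replicate block. Correlations of the deviations of same-numbered samples were 0.28, -0.05, 0.49 and -0.12, so the numbers do not pair them.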

Additional observations from a re-analysis of the deposited data

Results flagged for a closer look

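In 28 of 312 group values checked, 14 per phase, 1 sample lay apart from the others of its phase by a gap test that marks about 1 in 20 groups by chance. Late luteal replicate 3 gave 10 of them and was lowest, beside the next sample, for the fibroblast list mean (7.87, next 9.50), the matrix protease list mean (7.67, next 8.85), COL1A1 (9.33, next 12.24), IGF1 (6.46, next 10.22), VCAM1 (6.04, next 8.95), ADAMTS2, a procollagen protease (5.71, next 8.09), RARRES2 (9.14, next 11.17), ZNF423 (4.83, next 6.72) and the vessel gene EMCN (5.81, next 7.09), and highest for the platelet integrin ITGA2B (6.61, next 6.32). The other late luteal values were SPRY4 at 5.65 in replicate 6, MMP11 at 8.78 in replicate 7, CLEC10A at 6.74 in replicate 2 and ESR1 at 9.57 in replicate 8, whose nearest neighbour was 10.62.

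Early luteal replicate 1 stood apart for BCAS1 (6.05, next 3.78), SUSD4 (7.23, next 8.03), GNMT (7.48), IVL (10.41, next 12.44) and DSG1 (9.07, next 10.91), for each of them on the side of the late luteal mean. Early luteal replicate 4 was highest for the T and NK cell list mean (9.53, next 8.11), the glycogen list mean (9.14), CD1C (7.31) and CLEC10A (7.13), both dendritic cell genes. Early luteal replicate 2 was highest for CHEK2 (8.66), SPRR3 (14.44) and ITGA2B (6.59), and early luteal replicate 3 lowest for CCR6 (5.33) and the B and plasma cell list mean (7.57, next 8.18).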

How the results depend on the processing

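Apart from 3 exceptions, no probe set passed under any alternative run, and among those the lowest adjusted p in limma was 0.0726, with the actin difference as a covariate. The exceptions were the DMPA arm alone with 135 probe sets, 14 of them standing for list genes, the LNG arm alone with 1, and the fit without early luteal replicate 1 with 4, so that leaving out each sample gave 0 to 4. Those 4 were DZIP1 by 2 probe sets (2.12 and 1.96), BCAS1 (3.06) and SUSD4 (-1.23). For these genes the omitted sample lay nearest the late luteal values, so its omission had to widen the differences. The replicate block called 0 with 1043 at an unadjusted p under 0.05, against 2082 without it. Without a filter that looser count was 3968, with 1588 higher and 2380 lower, against 1154 higher and 928 lower with the filter. Probe sets of low signal thus leaned lower in late luteal samples. Over all samples of the series, with the duplicate averaged and the animal as a fixed block, the looser count was 3545. It was 3508 without late luteal replicate 3, 1342 without early luteal replicate 2, 380 in the LNG arm and 1136 at the 60th percentile filter. Probe sets at least 2-fold higher and lower were 520 and 73, but 187 and 139 once the stroma score was a covariate, and 536 and 589 over all arrays with the animal as a fixed block; the cause was not tested. Leaving out each sample moved the GAPDH difference between -0.040, without late luteal replicate 4 and opposite in sign, and 0.121, and the actin difference between -0.115 and -0.025. Leaving out a sample also turned the sign of the small medians of the barrier lipid, blood, nerve, steroid, estrogen-responsive and progestin-responsive lists. The 4 early luteal samples limit every comparison, and a p that missed the threshold does not show equal levels.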

Other observations

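One of the 2 probe sets of MAMU-A, a class I histocompatibility gene that varies between animals, took separate levels in different animals. It was chosen after its values were seen. It stood between 3.13 and 3.97 in each of the 4 samples of 3 animals, those of late luteal replicate 9 and early luteal replicates 1 and 2, and at 9.18 or above in the other 12 animals over all their samples. Within an animal its range was at most 1.35. Its late minus early luteal difference was 3.26 ± 1.90 (SE), while the other probe set had a difference of -0.03.

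The stromal level also varied within some animals. Over 50 fibroblast and smooth muscle genes the mean was 7.48 in early luteal replicate 4 and 9.09 in an early follicular biopsy of the same animal. It was 9.67 in late luteal replicate 1 and 7.25 in an early follicular biopsy of that animal. The animal of late luteal replicate 3 was low in both, at 7.64 in that sample and 7.13 in an early follicular biopsy.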
